A study of Mus musculus with 28 samples.

Results

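Bivalent regions were taken as the H3K27me3 regions of wild type (WT) mouse embryonic stem (ES) cells that shared at least 1 base with an H3K4me3 region. Of 19316 H3K27me3 regions, 4411 (22.84%) met this rule, and they touched 4860 of 28066 H3K4me3 regions (17.32%). A gene was counted as bivalent when its annotated start lay inside such a region or within 2 kb of it, which held for 3810 of 37991 genes, 3107 of them protein coding. The rule used only where the regions lie, so the 5-hydroxymethylcytosine (5hmC) reads over them and the RNA of their genes were independent measurements.

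All cells were of the J1 line (strain 129S4/SvJae), grown on gelatin in N2B27 medium with leukaemia inhibitory factor and inhibitors of MEK and GSK3, the condition that keeps ES cells naive. They were transduced with a hairpin against Kap1 (shKap1) or an empty vector (shEmpty), selected with puromycin and collected after 5 days. KAP1, encoded by Trim28, is the corepressor that zinc finger proteins bring to transposable elements and imprinted loci. RNA was sequenced from WT cells (3 shEmpty and 3 shKap1 libraries), DNMT TKO cells, knocked out for Dnmt1, Dnmt3a and Dnmt3b (3 and 3), and TET TKO cells, knocked out for Tet1, Tet2 and Tet3 (2 and 2). Each knockout was represented by 1 line, so that a difference from WT of the genotype and a difference of the line cannot be told apart. The H3K27me3 and H3K4me3 regions came from 2 ChIP-seq replicates each in WT shEmpty cells, and 5hmC was read by immunoprecipitation (hMeDIP-seq) in WT shEmpty and WT shKap1 cells.

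H3K27me3 is laid down by Polycomb repressive complex 2 and is read as a mark of silent genes, while H3K4me3 is laid down by trithorax-type methyltransferases at the starts of active genes. The pair together, called bivalent chromatin, is known from ES cells, where it covers CpG-rich starts of developmental regulators that are off or nearly off but can be switched on during differentiation. TET enzymes oxidise 5-methylcytosine to 5hmC and are known to bind CpG-rich starts. In bulk cells the pair may also come from a mixture of cells, or of alleles, that carry 1 mark each, and ChIP-seq of either mark alone cannot tell these apart.

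The 16 RNA libraries held 18108431 to 29373696 reads on genes, of which 2.66 to 3.49% fell on bivalent genes. Trim28 stood at 1990, 1640 and 1630 counts scaled to library size (CPM) in WT shEmpty and at 190, 156 and 149 CPM in WT shKap1, a fall of 3.41 ± 0.16 on the log2 scale (± standard error, as for every log2 RNA value here). The fall was 2.13 ± 0.15 in DNMT TKO and 3.47 ± 0.20 in TET TKO, and it was smaller in DNMT TKO than in WT (difference 1.28 ± 0.21, adjusted p = 0.000802). Dnmt1, Dnmt3a, Dnmt3b, Tet1 and Tet2 were lower in their knockouts than in WT, with log2 differences of -3.04 (Dnmt3a) to -1.49 (Tet1). Tet3, the only bivalent member of those 6 genes, was not: its shEmpty libraries stood at 13.3 and 14.2 CPM in TET TKO and at 10.7, 15.2 and 15.9 CPM in WT, and whether these reads lie outside the deleted part was not tested. Replicate 1 of the 4 WT and DNMT TKO groups stood apart from replicates 2 and 3, and replicate 2 of TET TKO shEmpty had 2.47% of its reads on rRNA-like genes against 0.149 to 0.277% in the others, a gene list picked after its values were seen. Counts of calls over all bivalent genes are therefore also given without replicate 1 of WT and DNMT TKO, and some other counts without either.

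The promoter sequences below are shown because these bivalent genes were among those with the largest fitted rises (Prss23, Psmb8) and falls (Ntrk2, Prkg2, Fgf17) after Kap1 knockdown in WT cells. Ntrk2 had 0 reads after knockdown, so its place rests on the fit, and the reads alone give a fall of at least 5.73-fold. Each runs 5′ to 3′ on the strand of its gene in the mm9 reference, from 270 bases before the annotated start to 30 after it, with every CpG in capitals.
Prss23 (chr7:96666067-96666366, minus strand): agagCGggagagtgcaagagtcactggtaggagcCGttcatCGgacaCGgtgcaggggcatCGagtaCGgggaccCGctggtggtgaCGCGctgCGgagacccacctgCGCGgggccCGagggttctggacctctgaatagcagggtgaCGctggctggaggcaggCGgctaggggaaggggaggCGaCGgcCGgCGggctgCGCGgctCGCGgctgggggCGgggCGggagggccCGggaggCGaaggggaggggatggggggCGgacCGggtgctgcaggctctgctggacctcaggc
Psmb8 (chr17:34334396-34334695, plus strand): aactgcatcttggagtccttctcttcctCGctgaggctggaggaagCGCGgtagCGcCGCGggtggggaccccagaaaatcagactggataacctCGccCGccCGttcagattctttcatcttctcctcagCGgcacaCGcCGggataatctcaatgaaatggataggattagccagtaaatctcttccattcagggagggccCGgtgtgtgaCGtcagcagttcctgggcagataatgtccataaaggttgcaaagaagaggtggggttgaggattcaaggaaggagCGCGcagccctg
Ntrk2 (chr13:58907687-58907986, plus strand): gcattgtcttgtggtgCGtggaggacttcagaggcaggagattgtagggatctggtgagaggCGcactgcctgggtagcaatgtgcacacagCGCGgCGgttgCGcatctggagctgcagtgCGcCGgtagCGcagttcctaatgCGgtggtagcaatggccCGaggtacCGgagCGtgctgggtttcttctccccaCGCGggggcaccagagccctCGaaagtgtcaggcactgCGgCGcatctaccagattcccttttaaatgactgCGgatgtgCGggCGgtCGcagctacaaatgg
Prkg2 (chr5:99466341-99466640, minus strand): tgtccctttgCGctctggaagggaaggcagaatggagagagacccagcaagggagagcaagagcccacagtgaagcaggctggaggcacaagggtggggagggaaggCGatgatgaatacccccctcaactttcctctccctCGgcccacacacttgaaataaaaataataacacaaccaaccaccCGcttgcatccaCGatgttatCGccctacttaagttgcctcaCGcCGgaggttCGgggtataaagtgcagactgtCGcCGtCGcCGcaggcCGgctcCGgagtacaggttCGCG
Fgf17 (chr14:71042046-71042345, minus strand): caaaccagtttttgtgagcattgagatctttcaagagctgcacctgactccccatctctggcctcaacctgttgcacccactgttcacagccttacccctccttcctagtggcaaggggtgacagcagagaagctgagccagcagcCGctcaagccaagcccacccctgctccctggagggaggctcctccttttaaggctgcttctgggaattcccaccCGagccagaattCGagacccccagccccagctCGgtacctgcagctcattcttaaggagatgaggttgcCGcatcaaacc

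The windows shown held 5 CpG (Fgf17) to 29 CpG (Prss23). The windows of Prss23, Prkg2 and Fgf17 lay wholly inside their bivalent region and that of Psmb8 over 295 of its 300 bases, while the start of Ntrk2 lay 444 bases outside its region. Over all 3809 bivalent genes with such a window the median was 18 CpG, and 74.9% held at least 10. That was near the H3K4me3 genes without H3K27me3 (median 18, 76.5%) and far from genes with H3K27me3 alone (median 4, 13.5%), genes with neither mark (median 2, 5.48%) and all genes (median 5, 37.2%).

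Bivalent regions were long. Their median length was 3199 bp (quartiles 1999 and 4999 bp), against 1799 bp for H3K27me3 regions without H3K4me3 and 1311 bp for H3K4me3 regions without H3K27me3. Of them, 1022 reached 5 kb and 202 reached 10 kb, and together they held 35.54% of all bases in H3K27me3 regions. As the regions were called, the H3K4me3 region was the smaller partner: it lay wholly inside the H3K27me3 region in 2827 cases, the 2 marks shared a median of 1154 bp (quartiles 793 and 1599 bp), and H3K4me3 covered a median of 35.92% of the H3K27me3 region. H3K27me3 regions run over whole windows of a fixed size and H3K4me3 regions do not, so the 2 lists may come from different peak callers. The part of peak calling in the lengths of the 2 marks was not tested. Since a longer region has more bases that can meet another, length was partly set by the rule. Just inside the rule, the smallest shared stretches were 4 bp (chr6:49318401-49319799) and 11 bp at 2 regions, and just outside it the smallest gaps were 4 bp (chr11:97265201-97265399), 7 bp and 11 bp. A further 645 H3K27me3 regions outside the rule lay within 1 kb of an H3K4me3 region.

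In base composition bivalent regions were closer to H3K4me3 regions than to the other H3K27me3 regions. Their median GC content was 54.17%, against 48.79% for H3K27me3 alone and 53.44% for H3K4me3 alone. The ratio of observed to expected CpG was 0.448 against 0.2032 and 0.4999. Annotated transposable elements covered 10.07% of their bases, against 24.99% and 20.44%, and 36.09% of bivalent regions held none. A gene start lay within 2 kb of 3185 bivalent regions (72.21%), against 12.96% of H3K27me3 and 48.88% of H3K4me3 regions without the other mark. The peak scores as deposited were also higher, with medians of 170 against 117 (replicate 1) and 258 against 142 (replicate 2) for H3K27me3, and of 552.7 against 367.3 and 1012 against 912.2 for H3K4me3. A KAP1 peak overlapped 152 bivalent regions (3.446%), against 0.9795% of H3K27me3 and 7.533% of H3K4me3 regions without the other mark, and an H3K9me3 region overlapped 48 (1.088%).

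The spread over chromosomes was uneven, with 9.459 to 29.97 bivalent regions per 10 Mb on autosomes other than 6 and 8. Chromosomes 6 and 8 lay within that range, at 20.2 and 26.35. Chromosomes 6 and 8 held 6796 of the H3K27me3 regions (35.18%) but 649 of the bivalent regions (14.71%). There 9.82% and 9.32% of H3K27me3 regions were bivalent, against 23.29 to 38.24% on the other autosomes. On X the share was 9.474% (9 of 95). The excess of H3K27me3 regions on chromosomes 6 and 8 thus lay among those without H3K4me3. Its part in the comparisons of bivalent regions with that class was not tested. In the hMeDIP input of WT shEmpty replicate 1, reads per kb over bivalent regions were 18.21 and 18.01 on chromosomes 6 and 8 and 17.21 to 18.61 on the other autosomes. That input is not from the ChIP-seq, so it cannot speak for the cells in which the regions were called.

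5hmC was given as the log2 ratio of 5hmC reads to input reads over the same region, each scaled to the total of its library over all 88984 listed regions. There was 1 library for each condition with an undisputed label, so no test was made and intervals cover counting error only. In shEmpty cells bivalent regions had a median of -0.769 (quartiles -1.243 and -0.31), and 3847 of the 4405 regions with at least 10 input reads (87.33%) lay below the input. This level rested on the scaling. With totals over H3K4me3 regions the median was 0.512 and 23.47% lay below the input, and without the region with the most 5hmC reads in the totals they were -0.468 and 75.39%. With the totals over all regions, H3K27me3 regions without H3K4me3 had a median of -0.658 and H3K4me3 regions without H3K27me3 a median of -1.547, so bivalent regions lay 0.111 below the first and 0.778 above the second. These 2 differences do not depend on the scaling of the libraries. In a further pair of libraries, whose labels and file names contradict each other, bivalent minus the other class was 0.168 and -0.107 read by the labels, opposite in sign to the values above, and -0.165 and 0.651 read by the file names, of the same sign.

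After Kap1 knockdown the median of bivalent regions was -0.361, and the median change was 0.397 (quartiles 0.108 and 0.69), and 3608 regions (81.91%) were higher. The change was at least 2-fold upward in 422 regions (9.58%) and at least 2-fold downward in 28 (0.6356%). This rise rested on how the libraries were scaled: a single region took 35.87% of the 5hmC reads over regions in shEmpty and 22.51% in shKap1, and without it in the totals the median change was 0.029 with 52.53% of regions higher. The change relative to the other classes did not rest on it. Bivalent regions rose by 0.182 more than H3K27me3 regions without H3K4me3, whose median change was 0.215, and by 0.007 more than H3K4me3 regions without H3K27me3, whose median change was 0.390. In the further pair of libraries the first of these differences was -0.15 read by the labels and 0.149 read by the file names, and the second was 0.103 and -0.103.

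**Figure D1:**
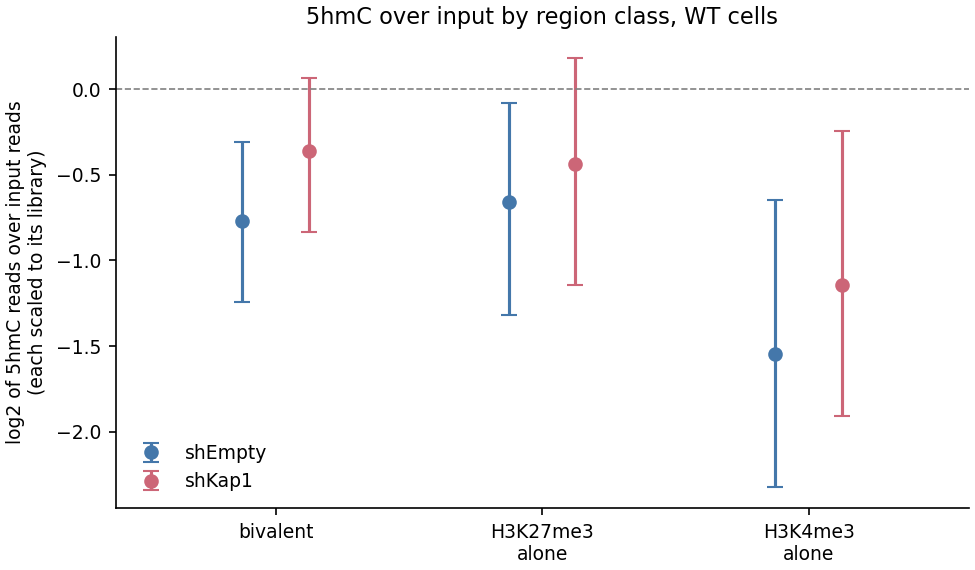
The vertical axis is the log2 ratio of 5hmC reads to input reads in WT cells for bivalent regions, H3K27me3 regions without H3K4me3 and H3K4me3 regions without H3K27me3, in shEmpty (blue) and shKap1 (red). Points are medians over regions and bars run between the quartiles, and the bivalent median moves from -0.769 to -0.361, between the other classes in shEmpty and above both in shKap1. The height of the points depends on how the libraries were scaled.

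Among bivalent regions, 5hmC went down with CpG density in the libraries with undisputed labels. The groups compared here were not read in the further pair of libraries. The median in shEmpty was -0.577 in the lowest of 3 equal groups by observed to expected CpG, -0.676 in the middle group and -1.077 in the highest. It was -0.826 in regions with a gene start and -0.567 in those without, and -0.939 in regions under 2 kb against -0.627 in regions of 5 kb or more. The 48 regions that overlapped H3K9me3 had a median of -0.193 and the 152 with a KAP1 peak a median of -0.617. The change on knockdown differed less, with medians from 0.312 (with H3K9me3) to 0.453 (under 2 kb) among these groups. Across 2856 bivalent genes tested for RNA, 5hmC over input and the change of 5hmC had Spearman correlations between -0.04 and 0.03 with RNA levels and RNA changes, which is a description across genes of the same libraries.

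Among the 4108 bivalent regions with at least 50 input reads over both conditions, the 5 with the lowest 5hmC each had a gene start within 2 kb, as did 72.21% of all bivalent regions. Their observed to expected CpG was 0.6866 to 0.9153, against a median of 0.448. The region at Uhrf2, a RING finger protein related to the maintenance methylation cofactor Uhrf1, had 1 5hmC read for 34 input reads (log2 ratio -4.899, 95% counting interval -6.955 to -2.843). The region at Pcdh15, a cadherin of the sensory hair bundle, had 2 reads for 35 and went to 18 for 37 after knockdown, a change of 2.92 (1.044 to 4.795). The highest ratio was in a 399 bp region near Clcn4-2, with 195 5hmC reads for 20 input reads (2.453). These regions were picked as extremes, so their values are a description.

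9 bivalent regions overlapped entries of the deposited list of imprinting control regions. At such loci the 2 marks can lie on opposite alleles, and KAP1 is known to protect the methylated allele at many of them. The deposited list differs from the study's table of control regions. The bivalent regions over its 6330408A02Rik, Neurog3 and second Grb10 entries overlap none in that table, and the one over Herc3 overlaps the table's Nap1l5. Here the regions over Gnas, Mest, Herc3, Airn and the first Grb10 entry had a KAP1 peak. Those over GnasXL, 6330408A02Rik, Neurog3 and the second Grb10 entry had none. These names are those of the deposited list, and the study's table names the 2 Gnas entries otherwise. There the entry called Gnas here (chr2:174123401-174125999) falls in GnasProXL, with KAP1 binding. The entry called GnasXL here (chr2:174151001-174156199) overlaps GnasEx1a, without KAP1 binding. The median of the 9 went from -0.243 to 0.12, and all 9 were higher after knockdown under the scaling used, as were 81.91% of all bivalent regions. Their median change of 0.243 was below the 0.397 of all bivalent regions and rests on the same scaling: with totals without the region with the most 5hmC reads it was -0.125, and 4 of the 9 were higher. The region over the entry called Gnas, GnasProXL in the study's table, went from 87 5hmC reads for 51 input reads to 231 for 52. This was a change of 1.706 (counting interval 1.05 to 2.361). That over Airn, the antisense RNA of the Igf2r cluster, changed by 1.203 (0.429 to 1.978), and that over Mest by 0.77 (0.225 to 1.315). For the other 6 the interval of the change included 0. With those other totals the intervals over Gnas (0.681 to 1.993) and Airn (0.06 to 1.609) stayed above 0, while that over Mest (-0.144 to 0.946) included it.

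Bivalent genes were weakly expressed. Per length, their median level in WT shEmpty was 0.134 ± 0.022 reads per kb scaled to library size (RPKM; SD, n = 3), against 7.33 RPKM for genes with H3K4me3 alone. At least 1 RPKM was reached by 24.6% ± 1.3 of bivalent genes, by 74.5% of H3K4me3 genes and by 6.77% of H3K27me3 genes, and 47% of bivalent genes stayed under 0.1 RPKM. Of the 3810 genes, 2857 had at least 16 reads over the 16 libraries and were tested, 953 had fewer, and 408 had none. The median level was 0.161 ± 0.0094 RPKM in WT shKap1, 0.131 and 0.181 in DNMT TKO shEmpty and shKap1, and 0.149 and 0.173 in TET TKO. In every genotype it was higher with shKap1 than with shEmpty. In bulk RNA, fewer cells that express a gene and less RNA in each cell cannot be told apart.

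RNA was compared with edgeR across all 20321 tested genes, and a gene was called when its Benjamini-Hochberg adjusted p was under 0.05 and its change at least 2-fold. After Kap1 knockdown in WT cells, 558 tested bivalent genes rose (19.5%, against 10.8% of all tested genes) and 343 fell (12%, against 6.54%). The median change was 0.14 over tested bivalent genes and -0.01 over all. The bivalent median was 0.07 without replicate 1 of WT shEmpty and 0.21 without replicate 3 of WT shEmpty. Shares among H3K27me3 genes without H3K4me3 were close to these (20.9% and 11.2%), those among genes with neither mark were 17.1% and 7.07%, and those among H3K4me3 genes without H3K27me3 were 5.25% and 4.66%. The share called varied with level. Level here was the mean RPKM over all 16 libraries, knockdown included, so a change can itself move a gene between levels. At 1 to 10 RPKM 20.2% of bivalent genes rose and 13.1% fell, against 25.9% and 9.88% of H3K27me3 genes, 6.29% and 5.51% of H3K4me3 genes and 16.1% and 7.2% of genes with neither mark. Under 0.1 RPKM the classes lay closer together, at 14.9% and 6.21% of bivalent genes, 13.9% and 7.73% of H3K27me3 genes, 13.5% and 4.18% of H3K4me3 genes and 14.7% and 4.95% of genes with neither mark. Genes counted among the 2857 had to pass the read filter, which a gene can do through the group where it is high. Without replicate 1 of WT and DNMT TKO the counts were 544 and 354.

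**Figure D2:**
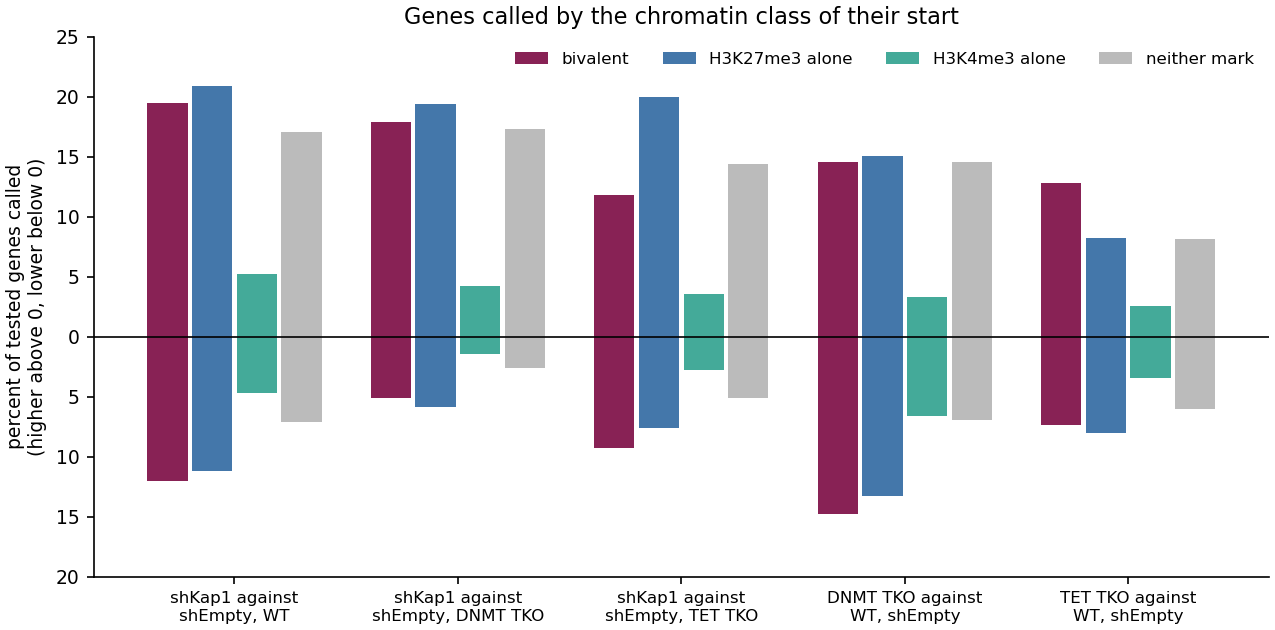
Bars above 0 give the percent of tested genes called higher and bars below 0 the percent called lower, for genes whose start is bivalent, carries H3K27me3 alone, H3K4me3 alone or neither mark, in the 3 knockdowns and the 2 genotype comparisons. Bivalent genes reach 19.5% higher and 12% lower in the WT knockdown, against 5.25% and 4.66% of genes with H3K4me3 alone.

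Within the bivalent genes the share that rose in WT went with CpG density, being 15.4% in the lowest of the 3 groups by CpG, 19.7% in the middle group and 23.7% in the highest, while the share that fell was 13.7%, 12.3% and 9.91%. Genes whose start lay inside the region were called higher in 21.1% of cases and lower in 12.4%, against 16% and 11.1% for starts up to 2 kb outside it. Of 171 genes at regions with a KAP1 peak 101 were tested, and 26.7% of these rose and 8.91% fell. Of 85 genes at regions with H3K9me3 only 28 were tested, and 13 rose and 1 fell. Many of the 171 and of the 85 are 5S rRNA gene entries at a single region of 92799 bp (chr8:126058401-126151199). It had both a KAP1 peak and H3K9me3, so values over all of the 171 or the 85 weigh this region heavily. In WT shEmpty the median level of the 85 was 0 RPKM, with 75.3% under 0.1 RPKM. Such genes can pass the read filter through the libraries where they are high, so these shares do not hold for all 85. In TET TKO 13 of these 28 rose and 0 fell, against 8.05% and 4.46% of all tested genes and 11.8% and 9.31% of tested bivalent genes. In DNMT TKO 6 rose (21.4%) and 0 fell, against 10.1% and 2.42% of all tested genes and 17.9% and 5.11% of tested bivalent genes. The counts by family that follow are to be read against the same shares. No test between these groups was made.

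Hox genes, the homeobox regulators of position along the body axis, were bivalent in 36 of 40 gene entries, and 33 of these were tested. In the WT knockdown 9 rose and 0 fell (1 fell without replicate 1 of WT and DNMT TKO), with a median change of 0.86. Hoxb2 was at 0, 0.0712 and 0.0708 CPM in WT shEmpty and at 2.36, 5.41 and 6.82 CPM in WT shKap1. No shEmpty library came near the shKap1 libraries, and the rise was 6.37 ± 0.76 (adjusted p = 5.96e-06), the largest among bivalent genes with at least 200 reads. The neighbouring Hoxb3 went from 0, 0.0356 and 0.0354 CPM to 0.472, 1.08 and 1.55 CPM (5.02 ± 0.73), and the antisense RNA Hoxb3os from 0.0555, 0.142 and 0 CPM to 1.1, 2.38 and 2.56 CPM (4.81 ± 0.70). These 3 genes lie in the same cluster and were counted by strand. Hoxa5 went from 0.167, 1.71 and 1.59 CPM to 4.51, 9.09 and 9.33 CPM (2.63 ± 0.51), with replicate 1 lowest in both groups. The 5hmC ratio at the Hoxb2 region was -0.74 in shEmpty and -0.06 in shKap1, and both values and their difference rest on the scaling of the libraries.

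In DNMT TKO 2 rose (1 without replicate 1) and 3 fell on knockdown, with a median of -0.02, and in TET TKO 4 rose and 0 fell, with a median of -0.03. Hoxb2 rose in both, from 0.0508, 0.414 and 0.501 CPM to 0.48, 2.16 and 1.11 CPM in DNMT TKO (1.85 ± 0.63) and from 0.282 and 0.15 CPM to 1.25 and 1.9 CPM in TET TKO (2.82 ± 0.80). The rise in DNMT TKO was smaller than in WT (difference -4.52 ± 1.17, adjusted p = 0.0141), beside the smaller fall of Trim28 in that line, whose part in it was not tested. For TET TKO the difference of -3.56 ± 1.41 did not pass (adjusted p = 0.134). The TET TKO counts of Hox genes were 8 higher and 3 lower without replicate 1 of the other genotypes and 2 and 0 without replicate 2 of TET TKO shEmpty. Of the 33 Hox genes, the interaction with genotype was called for 0 higher and 2 lower in DNMT TKO (0 and 7 with the replicate block and also without replicate 1 of WT and DNMT TKO) and for 0 and 2 in TET TKO (0 and 0 without replicate 2 of TET TKO shEmpty, 0 and 3 with the block), and no test of the family was made. Over all tested genes the interaction was called higher for 4.66% and lower for 2.48% in DNMT TKO, and for 2.08% and 2.13% in TET TKO.

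The other homeobox and paired-box genes, which pattern brain, eye, heart and limb, were bivalent in 90 of 107 entries, with 69 tested. On knockdown 14 rose and 6 fell in WT (median 0.27), 15 and 2 in DNMT TKO (median 0.58, or 0.55 with genes at 0 reads in a group set at their bound) and 13 and 5 in TET TKO (median 0.32, or 0.29). Without replicate 2 of TET TKO shEmpty the last counts were 8 and 2. The WT shares of 20.3% and 8.7% were near or under those of all tested bivalent genes (19.5% and 12%). This list was trimmed after its values were seen, because the name pattern first used also took genes without a homeobox. As first written it held 103 bivalent of 154 entries with 78 tested, and gave 15 and 7, 17 and 3 (14 and 5 without replicate 1), and 14 and 5. Meis1, a cofactor of Hox proteins, went from 0.278, 0.712 and 0.602 CPM to 4.82, 6.15 and 4.26 CPM in WT (3.18 ± 0.30) and rose in DNMT TKO (1.64 ± 0.28) and TET TKO (2.09 ± 0.34) as well. Tlx2, a regulator of enteric neurons, went the other way, from 4.17, 12.9 and 13 CPM to 0.524, 1.08 and 1.28 CPM (-3.39 ± 0.45). For both genes the shEmpty and shKap1 libraries did not overlap in any genotype.

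Nkx2-1, the lung and thyroid regulator, was near the limit of detection, with 0.0555, 0 and 0.0354 CPM in WT shEmpty and 0.157, 0.39 and 0.16 CPM in WT shKap1 (2.94 ± 0.84). Lhx2, of eye and hair follicle, was not called in any knockdown, at 1.39, 2.74 and 3.22 CPM in WT shEmpty and 2.73, 2.94 and 3.41 CPM in WT shKap1. Cdx2, the trophectoderm and hindgut regulator, differed by genotype. Its shEmpty libraries stood at 1.17, 1.67 and 1.63 CPM in WT, at 6.5, 5.52 and 5.48 CPM in DNMT TKO and at 0.599 and 0.451 CPM in TET TKO. In DNMT TKO it fell to 1.15, 1.08 and 0.927 CPM with shKap1 (-2.47 ± 0.20), while the WT change was -0.10 ± 0.22, and the difference between them passed (-2.37 ± 0.30, adjusted p = 2.32e-05).

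GATA, FOX, SOX and T-box factors, regulators of the germ layers, were bivalent in 51 of 84 entries, with 42 tested. In WT 13 rose and 7 fell (median 0.55), in DNMT TKO 11 and 2 (median 0.31) and in TET TKO 6 and 7 (median -0.06). Sox30, a germ cell factor, went from 0.111, 0.142 and 0.177 CPM to 3.83, 3.98 and 4.58 CPM in WT (4.76 ± 0.31), from 0.0508, 0.104 and 0.308 CPM to 9.89, 8.84 and 7.79 CPM in DNMT TKO (5.74 ± 0.29) and from 0.106 and 0.15 CPM to 3.38 and 3.39 CPM in TET TKO (4.67 ± 0.39). The rise was thus seen in every shKap1 library of the 3 genotypes. Foxi3, an ectodermal placode factor, rose in all 3 genotypes as well, in WT from 3.11, 2.06 and 1.91 CPM to 21.9, 15.2 and 14.9 CPM (2.90 ± 0.20). Foxd1, a factor of kidney stroma, fell in WT from 6.5, 20.2 and 17 CPM to 1.78, 1.86 and 2.83 CPM (-2.77 ± 0.35).

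Of the germ layer markers in this group, Sox17, of endoderm, went from 0.389, 0.462 and 0.425 CPM to 3.3, 1.21 and 1.55 CPM in WT (2.21 ± 0.37) and T, of mesoderm, from 4.05, 3.1 and 1.7 CPM to 1.57, 1.21 and 1.44 CPM (-1.04 ± 0.27). T also fell in DNMT TKO, from 7.57, 11.6 and 10.6 CPM to 2.07, 1.98 and 2.04 CPM (-2.29 ± 0.24). Gata6, of primitive endoderm, was not called in any knockdown and stayed between 0.356 and 1.27 CPM in every library. Eomes was not called either, with a WT change of -1.04 ± 0.41 (adjusted p = 0.0536).

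bHLH and ZIC factors, most of them proneural, were bivalent in 24 of 28 entries. Of 18 tested, 8 rose and 3 fell in WT (median 1.26), 7 and 0 in DNMT TKO (median 0.68) and 3 and 1 in TET TKO (median 0.37), with 2 falls there without replicate 1 of WT and DNMT TKO. Neurog1, which commits cells to sensory neurons, went from 0.0555, 0.178 and 0.318 CPM to 2.25, 1.04 and 1.28 CPM in WT (2.89 ± 0.41) and rose in DNMT TKO (1.67 ± 0.43) and TET TKO (2.74 ± 0.55). Atoh1, of hair cells and granule neurons, behaved likewise at lower levels, from 0.0555, 0.0712 and 0.106 CPM to 0.734, 0.606 and 0.426 CPM in WT (2.80 ± 0.49). Olig2 was bivalent but had 12 reads over all libraries, under the filter.

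**Figure D3:**
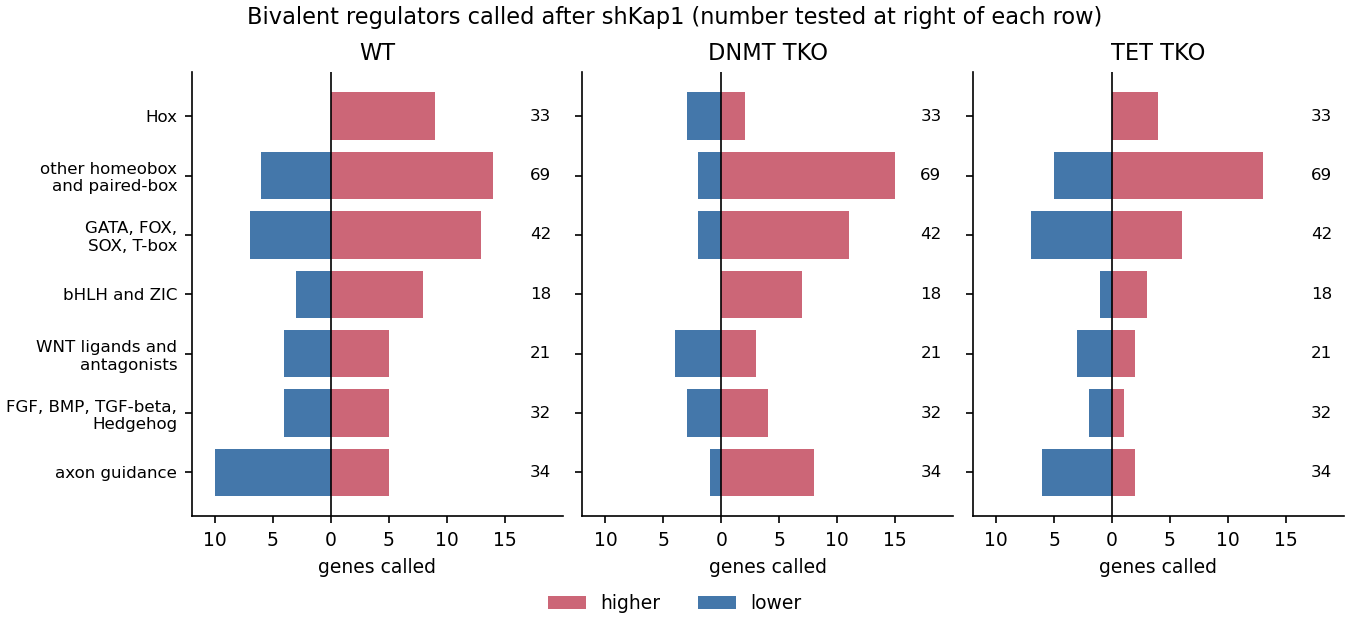
Bars to the right give bivalent genes called higher and bars to the left those called lower after shKap1 in WT, DNMT TKO and TET TKO, by family, with the number tested at the right of each row. In WT 9 of 33 Hox genes were higher and 0 lower, while 5 of 34 axon guidance genes were higher and 10 lower.

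Secreted signals were called in both directions. Of WNT ligands and antagonists 25 of 32 were bivalent and 21 tested, and 5 rose (23.8%, near the 19.5% of tested bivalent genes) and 4 fell in WT, 3 and 4 in DNMT TKO and 2 and 3 in TET TKO (4 rises there without replicate 1 of WT and DNMT TKO). Sfrp1, a WNT antagonist, fell from 270, 241 and 244 CPM to 65.6, 53.7 and 55.8 CPM in WT (-2.11 ± 0.10) and from 1140 and 1150 CPM to 482 and 485 CPM in TET TKO (-1.25 ± 0.11). In DNMT TKO it went from 142, 117 and 115 CPM to 78.1, 60.4 and 68.8 CPM, a change of -0.85 ± 0.10 that was under 2-fold. Wnt11 fell in all 3 genotypes, in WT from 1.94, 2.77 and 2.41 CPM to 0.105, 0.52 and 0.213 CPM (-3.01 ± 0.44). Dkk3, another antagonist, fell in WT by 2.14 ± 0.52, in DNMT TKO by 1.49 ± 0.29 and in TET TKO by 3.55 ± 0.44.

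Of FGF, BMP, TGF-beta and Hedgehog ligands and antagonists 37 of 60 were bivalent and 32 tested, with 5 higher and 4 lower in WT, 4 and 3 in DNMT TKO and 1 and 2 in TET TKO. Fgf17, a ligand of the midbrain organiser, went from 8.44, 4.2 and 5.06 CPM to 0.157, 0.433 and 0.107 CPM in WT (-4.54 ± 0.39). The fall was smaller in DNMT TKO (-1.66 ± 0.32, difference 2.88 ± 0.55, adjusted p = 0.00116) and in TET TKO (-2.36 ± 0.36, difference 2.19 ± 0.59, adjusted p = 0.0249). Fgf3, an otic ligand, went from 2.72, 4.41 and 3.86 CPM to 0.262, 0.26 and 0.0533 CPM in WT (-4.20 ± 0.46) and fell in DNMT TKO too, and by 1.62 ± 0.38 in TET TKO. Bmp4 fell in WT from 12.1, 8.4 and 7.4 CPM to 1.05, 2.04 and 2.35 CPM (-2.34 ± 0.35). Gdf10 had 0 reads in WT shEmpty and 0.105, 0.26 and 0.373 CPM in WT shKap1, at least 6.1-fold higher, a bound set by taking 3 reads for the group at 0.

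Axon guidance ligands and receptors, bivalent in 34 of 70 entries and all 34 tested, had the most falls of these families in WT (5 higher and 10 lower, median -0.08), with 8 higher and 1 lower in DNMT TKO (median 0.20) and 2 and 6 in TET TKO. The fall count in DNMT TKO was 2 without replicate 2 of TET TKO shEmpty. The difference from WT was called in DNMT TKO for 4 higher and 1 lower of the 34 (11.8% and 2.94%, against 9.21% and 5.57% of tested bivalent genes and 4.66% and 2.48% of all tested genes). These were 2 and 1 without replicate 2 of TET TKO shEmpty, 4 and 2 without replicate 1 of WT and DNMT TKO, and 3 and 2 with the replicate block. No test of the family was made. Nrp2, a semaphorin receptor, fell in every genotype, in WT from 30.1, 25.7 and 23.8 CPM to 4.35, 6.58 and 7.25 CPM (-2.12 ± 0.15). Sema6a, a semaphorin, rose in WT from 9, 9 and 9.73 CPM to 42.6, 41.5 and 37.6 CPM (2.13 ± 0.17) and in DNMT TKO by 2.05 ± 0.20, while the TET TKO change of 0.81 ± 0.20 was under 2-fold.

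Among Polycomb genes 6 of 33 entries (18.2%) were bivalent, beside 3810 of all 37991 genes counted and 3107 of the 22337 protein-coding ones, with median changes of 0.13 in WT, -0.04 in DNMT TKO and -0.23 in TET TKO. Of trithorax genes and H3K27 demethylases 0 of 19 were bivalent. Of the DNMT and TET enzymes 1 of 9 entries was, Tet3, and it went from 10.7, 15.2 and 15.9 CPM to 53.3, 46.6 and 47.2 CPM in WT (1.80 ± 0.14). It did not pass in DNMT TKO (0.13 ± 0.14), the difference from WT being -1.67 ± 0.20 (adjusted p = 1.26e-05), nor reach 2-fold in TET TKO (0.50 ± 0.17), where the gene is a target of the knockout.

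Outside these families, the other largest WT rises were Prss23, a serine protease, from 0.111, 0 and 0.0354 CPM to 1.52, 1.73 and 1.55 CPM (5.13 ± 0.56), Psmb8, a subunit of the immunoproteasome, from 0.111, 0.142 and 0.0708 CPM to 3.83, 3.03 and 3.04 CPM (4.87 ± 0.54), and C130021I20Rik (4.71 ± 0.69). Prss23 and Psmb8 rose in the other genotypes too, by 2.65 ± 0.41 and 2.81 ± 0.64 in DNMT TKO and by 1.58 ± 0.52 and 3.23 ± 0.85 in TET TKO. Among the falls, Prkg2, a cGMP-dependent kinase, went from 1.67, 1.74 and 1.56 CPM to 0.157, 0 and 0.0533 CPM (-4.54 ± 0.46), Slc13a5, a citrate transporter, fell by 4.54 ± 0.57 and Kcnd3, a potassium channel, by 4.34 ± 0.43. These 3 fell in all 3 genotypes. Ntrk2, the receptor of brain-derived neurotrophic factor, had 0.333, 0.249 and 0.283 CPM in WT shEmpty and 0 reads in the 3 WT shKap1 libraries, at least 5.73-fold lower.

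In DNMT TKO cells 511 bivalent genes rose after knockdown (17.9%, against 10.1% of all tested genes) and 146 fell (5.11%, against 2.42%), with a median change of 0.21 (0.19 with groups at 0 reads at their bound) against 0.02 over all. Shares were 19.4% and 5.87% of H3K27me3 genes without H3K4me3, 17.3% and 2.63% of genes with neither mark, and 4.26% and 1.47% of H3K4me3 genes without H3K27me3. Without replicate 1 the bivalent counts were 477 and 158. Rassf4, a RAS association domain protein, had the second largest rise after Sox30, from 4.57, 3.49 and 4.59 CPM to 252, 158 and 146 CPM (5.47 ± 0.22). In WT the same gene fell, from 3.83, 4.55 and 4.92 CPM to 1.26, 0.953 and 1.71 CPM (-1.80 ± 0.32), so the shKap1 libraries lay on opposite sides of shEmpty in the 2 genotypes. Chst1, a sulfotransferase, Fam163a, and Insrr, a receptor related to the insulin receptor, rose by 5.18 ± 0.60, 4.94 ± 0.47 and 4.87 ± 0.79, and all 3 also rose in WT and TET TKO. H2-Q6 rose by 4.88 ± 0.89, but belongs to a family of near-identical class I genes whose reads may be shared. Among the falls, Tmem132d went from 2.08, 2.11 and 1.81 CPM to 0 reads in 3 libraries, at least 46-fold lower, and Lad1, an anchoring filament protein, from 8.58, 21.9 and 19.5 CPM to 1.06, 3.2 and 2.67 CPM (-2.85 ± 0.44).

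In TET TKO cells 337 bivalent genes rose (11.8%, against 8.05%) and 266 fell (9.31%, against 4.46%), with a median of 0.02 against -0.01. Shares were 20% and 7.63% of H3K27me3 genes without H3K4me3, 14.4% and 5.14% of genes with neither mark, and 3.6% and 2.77% of H3K4me3 genes without H3K27me3. The bivalent median was 0.07 without replicate 2 of TET TKO shEmpty and -0.02 without replicate 1 of TET TKO shKap1. Without replicate 2 of TET TKO shEmpty the counts were 279 and 213, with the remaining library assumed to vary like the other groups, and 394 and 302 without replicate 1 of WT and DNMT TKO. Arntl2, a partner of the circadian factor CLOCK, went from 1.83 and 1.61 CPM to 133 and 132 CPM (6.26 ± 0.17). No other genotype came near this, with at most 8.36 CPM in any WT or DNMT TKO library, and its WT change was 0.97 ± 0.19. Tacr3, a neurokinin receptor, went from 0.106 and 0.15 CPM to 6.62 and 6.21 CPM (5.60 ± 0.48), and Stox1, a winged helix factor, from 0.952 and 0.864 CPM to 36.8 and 38.3 CPM (5.36 ± 0.33). Among the falls, Tmem132d had 0.634 and 1.09 CPM in shEmpty and 0 reads in shKap1, at least 11.7-fold lower. Calb2, the calcium buffer calretinin, went from 9.27 and 10.1 CPM to 0.324 and 0.308 CPM (-4.92 ± 0.39), and Dclk3, a kinase, changed by -4.69 ± 0.33. Calb2 and Dclk3 fell in all 3 genotypes.

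**Figure D4:**
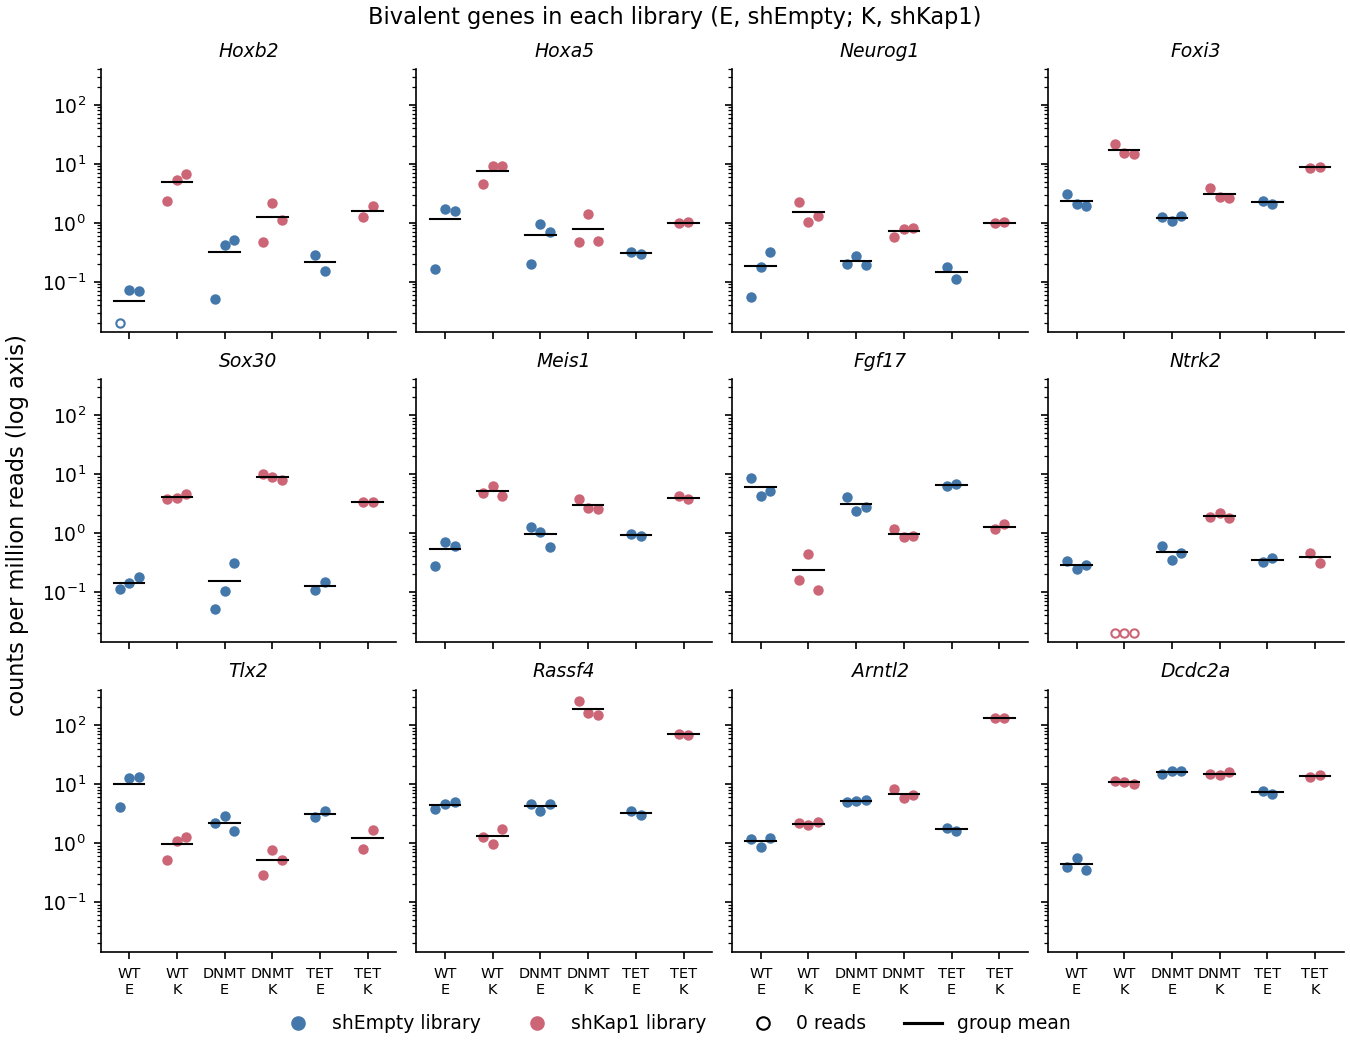
The vertical log axis gives CPM in each library for 12 bivalent genes in the 6 groups, with shEmpty in blue (E), shKap1 in red (K), black lines at group means and open circles at the bottom for 0 reads. Sox30, Neurog1 and Meis1 are higher with shKap1 in all 3 genotypes, Rassf4 is lower in WT and higher in both knockouts, and Arntl2 reaches 133 and 132 CPM in TET TKO shKap1 only.

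The 3 knockdowns share no libraries, and their calls were set side by side. Of the bivalent genes that rose in WT, 268 also rose in DNMT TKO, which is 48% of the WT list and 52.4% of the DNMT TKO list, and 2 fell there. With TET TKO the overlap of rises was 225 genes, or 40.3% of the WT list and 66.8% of the TET TKO list. Of the falls, 84 were shared between WT and DNMT TKO (24.5% and 57.5%), where 17 WT falls rose, and 151 between WT and TET TKO (44% and 56.8%). Over all 20321 tested genes the shares of the same lists were 52.1% and 56.1% for the rises of WT and DNMT TKO, 51% and 68.6% for those of WT and TET TKO, 21.1% and 57% for the falls of WT and DNMT TKO, and 39.8% and 58.3% for those of WT and TET TKO. All 3 knockdowns raised 164 bivalent genes and lowered 55 (5.74% and 1.93% of those tested, against 3.95% and 0.901% of all tested genes). Over the 2857 tested genes the Spearman correlation of the log2 changes was 0.52 between WT and DNMT TKO, 0.59 between WT and TET TKO and 0.52 between the knockouts, against 0.52, 0.58 and 0.5 over all tested genes, described across genes, which are not replicates.

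Without knockdown, 416 bivalent genes were higher in DNMT TKO than in WT (14.6%, against 8.23% of all tested genes) and 424 lower (14.8%, against 8.05%), with a median of 0, and 450 and 456 without replicate 1. Shares were 15.1% and 13.3% of H3K27me3 genes without H3K4me3, 14.6% and 6.96% of genes with neither mark, and 3.3% and 6.62% of H3K4me3 genes without H3K27me3. Some chromosomes were shifted, with medians over all their tested genes of 0.29 (chromosome 11), -0.29 (6) and -0.18 (8). Their bivalent genes had medians of 0.38, -0.3 and -0.18, and the part of these shifts in the counts was not tested. The Hox genes, of which Hoxb2 and its neighbours lie on chromosome 11, had 12 higher and 3 lower, with a median of 0.69. Sgcz, a sarcoglycan, stood at 0, 0 and 0.0354 CPM in WT shEmpty and at 4.52, 6.21 and 5.24 CPM in DNMT TKO shEmpty (8.16 ± 0.47), and it was not called in the DNMT TKO knockdown. Inpp4b, an inositol phosphatase, had 0 reads in WT shEmpty and 0.457, 1.31 and 1.74 CPM in DNMT TKO, at least 30.6-fold higher. Kbtbd11 (6.37 ± 0.44), St8sia5, a sialyltransferase (6.08 ± 0.35), and Cacna1s, a calcium channel subunit (5.19 ± 0.68), were also higher. Sox7, of primitive endoderm, had the largest fall, from 3.78, 2.03 and 1.34 CPM to 0, 0.0345 and 0.0386 CPM (-6.18 ± 0.65). Other large falls were those of H2-Q6 (-5.50 ± 0.81), Grm8, a glutamate receptor, and Bhlhe41, a clock repressor (-4.87 ± 0.46).

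TET TKO against WT without knockdown gave 366 bivalent genes higher (12.8%, against 5.66%) and 211 lower (7.39%, against 4.8%), with a median of 0.15 against 0. Shares were 8.22% and 8.02% of H3K27me3 genes without H3K4me3, 8.16% and 6.03% of genes with neither mark, and 2.6% and 3.43% of H3K4me3 genes without H3K27me3. The bivalent median was 0.08 without replicate 1 of WT shEmpty and 0.09 without replicate 1 of WT and DNMT TKO. With either of the 2 TET TKO shEmpty libraries left out, the lower count was 145 (without replicate 1) or 131 (without replicate 2), and the higher count 303 or 307. Without replicate 1 of WT and DNMT TKO the counts were 369 higher and 283 lower. Both genotype comparisons use the same WT shEmpty libraries, and the WT knockdown does too. Gm10499 stood at 0.278, 0.142 and 0.0708 CPM in WT and 42.2 and 43.9 CPM in TET TKO (8.13 ± 0.24). It lies among class I histocompatibility genes, so its reads may be shared with near-identical copies. Mdga2, an adhesion molecule of neurons, had 0 reads in WT shEmpty and 0.458 and 0.225 CPM in TET TKO (at least 8.56-fold higher), and Fcgr3, an immunoglobulin receptor, went from 0.167, 0.0712 and 0.177 CPM to 6.56 and 7.14 CPM (5.61 ± 0.33). Foxj1, the factor of motile cilia, was lower, from 1.28, 1.85 and 1.31 CPM to 0.0705 and 0.225 CPM (-3.31 ± 0.42), as were Pigz, a glycolipid anchor enzyme (-3.76 ± 0.72), and Pstpip2 (-2.91 ± 0.42).

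Whether the knockdown acted differently between genotypes was tested by the interaction of hairpin and genotype. A higher effect can be a larger rise or a smaller fall, and a lower effect a smaller rise or a larger fall. In DNMT TKO the effect was higher than in WT for 263 bivalent genes (9.21%, against 4.66% of all tested genes) and lower for 159 (5.57%, against 2.48%), beside a fall of Trim28 that was smaller there by 1.28 ± 0.21 and whose part in these counts was not tested. Without replicate 1 of WT and DNMT TKO the counts were 302 and 202. Ntrk2, with 0 reads in WT shKap1, rose in DNMT TKO from 0.609, 0.345 and 0.463 CPM to 1.83, 2.21 and 1.78 CPM (2.06 ± 0.27). Dcdc2a, a doublecortin family gene, rose in WT from 0.389, 0.569 and 0.354 CPM to 11.4, 10.8 and 10.2 CPM (4.59 ± 0.17). In DNMT TKO it was already at 14.6, 16.6 and 16.9 CPM with shEmpty and at 15.1, 14.1 and 16.1 CPM with shKap1, and the difference of effects was -4.68 ± 0.21.

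In TET TKO the effect was higher than in WT for 91 bivalent genes (3.19%, against 2.08%) and lower for 163 (5.71%, against 2.13%). These counts were the least stable: they were 176 and 225 without replicate 1 of WT and DNMT TKO, and 47 to 59 and 92 to 108 when any 1 of the 4 TET TKO libraries was left out. Cldn9, a tight junction claudin, rose in TET TKO from 0.564 and 0.413 CPM to 17.6 and 13.8 CPM (4.98 ± 0.30), while in WT it fell from 0.5, 0.64 and 0.672 CPM to 0.367, 0.13 and 0.267 CPM (-1.29 ± 0.38). Tgfbi, an extracellular matrix protein, went the opposite way, falling in TET TKO from 5.46 and 5.26 CPM to 0.278 and 0.565 CPM (-3.67 ± 0.39) and rising in WT from 4.55, 2.85 and 2.65 CPM to 9.75, 6.15 and 5.65 CPM (1.12 ± 0.23).

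Marker lists of the cell types these cultures could hold moved with the hairpin as well, and their part in the changes of bivalent genes was not tested. Their counts are to be read against all tested genes, of which 10.8% rose and 6.54% fell in the WT knockdown. Of tested bivalent genes 19.5% rose and 12% fell there. In DNMT TKO 10.1% of all tested genes rose and in TET TKO 8.05%. Of 13 naive ES markers, 0 of them bivalent, 6 fell in the WT knockdown and 0 rose, and their summed level went from 5870 to 6040 CPM in shEmpty to 3470 to 3570 CPM in shKap1. All 7 markers of 2-cell-like cells rose in each genotype, in WT from a sum of 14.5 to 27.5 CPM to 230 to 262 CPM. Of the 7 neuroectoderm markers in the files, 6 of them bivalent, 5 rose in WT and 0 fell, and the sum went from 39.2 to 49.8 CPM to 108 to 127 CPM. The sum of 8 mesoderm markers, 7 of them bivalent, went from 6.55 to 10.8 CPM to 3.77 to 4.05 CPM, that of the primitive endoderm markers from 112 to 132 CPM to 59.9 to 81.5 CPM, that of the trophoblast markers from 166 to 210 CPM to 206 to 239 CPM, and that of fibroblast feeder markers was 3.28 to 4.27 CPM and 3.04 to 5.07 CPM, with 2 of the 6 at 0 reads in every WT shKap1 library. Of the 6 bivalent primitive endoderm markers 1 rose and 1 fell, with a median change of 0.49 on the log2 scale although their list's sum was lower, and of the 5 bivalent trophoblast markers 2 rose and 0 fell. Pax6 and Gata4, often bivalent in ES cells, carried H3K27me3 without H3K4me3 by the rule used here.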

How the data were processed

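Members, gene lists and tests were chosen with earlier results of these data known. The authors deposited raw counts per gene from featureCounts (reverse-stranded, exons), RNA counts over repeats, counts of hMeDIP reads over 6 region sets, and ChIP-seq peaks with a score. Their notes name Bowtie2, HISAT2, MACS and SICER. Coordinates are mm9. The study's methods name MACS for peaks and SICER for H3K9me3, and do not name H3K27me3 separately. The deposited H3K27me3 regions run over whole windows of a fixed size, so their caller may differ from that of H3K4me3. The study describes the RNA replicates as independent experiments.

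Regions were intersected with Python and bedtools 2.31.1 (at least 1 bp). 5hmC was log2 of 5hmC over input reads with a pseudocount of 1 read, in regions with at least 10 input reads, from replicate 1, since the labels and file names of replicate 2 contradict each other. Intervals (95%) cover counting error only. RNA was fitted with edgeR 4.0.16 (robust quasi-likelihood F test, TMM, 16 libraries in 6 groups, genes with at least 16 reads over all) in R 4.3.3, with limma-voom (limma 3.58.1) and DESeq2 1.42.0 as alternatives, and Benjamini-Hochberg adjustment over all 20321 genes. Scripts were tested on simulated data. Depth was 18108431 to 29373696 reads on genes per library. The file of RNA counts over repeats of WT shEmpty replicate 1 gave the positions of transposable elements, and the other 15 such files were not used.

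Named genes were the 16 fixed developmental genes, the largest rises and falls among called bivalent genes with at least 200 reads and no overlap between groups (for interactions without that last condition), and up to 3 called members of each list. Same-numbered libraries of WT shEmpty deviated together with those of WT shKap1 and of DNMT TKO shEmpty (correlations of 0.118 to 0.274 and of 0.135 to 0.317 over tested genes). Between hairpins the correlations were 0.0781 to 0.33 in DNMT TKO and -0.00372 in TET TKO. Over genes with at least 160 reads those in DNMT TKO were 0.167 to 0.499, all over 0.1. Libraries with different numbers were not compared, and replicate 1 stood apart in WT and DNMT TKO. These correlations therefore cannot show that the numbers pair the libraries. Any such pairing would come from the data, not from the labels. Alternatives covered scaling, filters, test, thresholds, overlap, window, blocks and left-out libraries. Some items that these rules select are not reported here.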

Additional observations from a re-analysis of the deposited data

Results flagged for a closer look

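These results differed between genotypes by the interaction term of hairpin and genotype. In DNMT TKO the knockdown effect was higher than in WT for 263 bivalent genes and lower for 159 (9.21% and 5.57%, against 4.66% and 2.48% of all tested genes), beside a fall of Trim28 that was smaller in DNMT TKO by 1.28 ± 0.21 and whose part was not tested. The largest fitted differences (log2, DNMT TKO minus WT) were 7.82 for Ntrk2, 7.27 for Rassf4 and 4.49 for Ky on the higher side, and -4.68 for Dcdc2a, -4.60 for Stbd1 and -4.52 for Hoxb2 on the lower side. In TET TKO it was higher than in WT for 91 bivalent genes and lower for 163 (3.19% and 5.71%, against 2.08% and 2.13%). The largest fitted differences (TET TKO minus WT) were 6.28 for Cldn9, 6.23 for Rassf4 and 5.93 for Ntrk2, and -5.12 for 4632428N05Rik, -4.80 for Tgfbi and -3.78 for Loxl4. Ntrk2 had 0 reads in WT shKap1, so its fitted differences are no bound.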

How the results depend on the processing

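The 5hmC level depended on the scaling. The median of bivalent regions in shEmpty was 0.512 and its change 0.009 with totals over H3K4me3 regions, and -0.468 and 0.029 with totals without the region with the most 5hmC reads. In replicate 2 they were 0.07 and -0.129 by the labels and -1.207 and 0.129 by the file names, and the cause was not tested. A rule that asked for H3K4me3 over the larger part of the H3K27me3 region kept 1265 regions, and one that asked for H3K4me3 peaks above the median score in both replicates kept 2788. With no fold threshold, more genes were called by construction: 1357 in the WT knockdown (548 lower), 1101 in DNMT TKO (376 lower), 440 lower in TET TKO, 1326 in DNMT TKO against WT (670 higher, 656 lower), 908 in TET TKO against WT (602 higher), 264 with a lower effect in DNMT TKO than in WT and 139 with a higher effect in TET TKO than in WT.

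Leaving out 1 library at a time gave 131 to 240 genes lower in TET TKO than in WT, with 145 and 131 without replicate 1 and replicate 2 of TET TKO shEmpty. It gave 139 to 289 genes with a different effect in TET TKO (47 to 120 higher, 92 to 182 lower), the lowest values being without a TET TKO library, and leaving out replicate 1 of WT and DNMT TKO together, chosen after seeing the data, gave 401 (176 higher). Where 1 library was left in a group, it was assumed to vary like the others. With the replicate number as a block the calls were 564 and 344 in WT, 522 and 151 in DNMT TKO, 356 and 284 in TET TKO, 430 and 430 in DNMT TKO against WT, 375 and 200 in TET TKO against WT, and 279 and 179, and 115 and 190, for the interactions. The block moved none of these counts over all bivalent genes by over 1.5 times, but it moved some small counts of gene families, among them Hox genes with a lower effect in DNMT TKO than in WT (from 2 to 7) and Hox genes higher (from 3 to 6) and lower (from 1 to 3) in TET TKO than in WT. For 182 values of named genes, 4295 alternatives kept the direction and the side of the threshold, 24 lost the threshold, 36 gained it and 0 turned the sign, and 9 genes lost a call in some alternative. Depth limits what can be said of the 953 of 3810 bivalent genes that had under 16 reads.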
